A study of Mus musculus with 6 samples.

Results

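TGF-beta ligands, receptors and latent binders were examined as a group of 10 genes in ECFP+ osteoblasts (OBs) of BMP-2-induced ectopic bone. The members were listed by gene symbol without a cut on their values, but with earlier results of these data known. They were the ligands *Tgfb1*, *Tgfb2* and *Tgfb3*, the receptors *Tgfbr1*, *Tgfbr2* and *Tgfbr3*, and the latent binders *Ltbp1*, *Ltbp2*, *Ltbp3* and *Ltbp4*. All 10 were among the 23284 genes listed in each sample, and all 10 were among the 19526 genes with a mean above 0.1 FPKM (a level corrected for the length of the gene's transcripts and for the size of the library) that entered the comparison. OBs of male *Col2.3*-ECFP mice aged 12 to 16 weeks were collected from collagen sponges loaded with 2.5 μg of BMP-2, with 3 samples from day 10 of implantation and 3 samples from day 14. Both groups carried the same reporter, in which a type I collagen promoter drives ECFP, and the same BMP-2 implant, and no group without BMP-2 was analysed here. CD45+ and dead cells were gated out, and ECFP+ cells can include other cells in which this promoter is active. Cells of day 10 were released by 1 collagenase digestion of 40 min and cells of day 14 by 2, and an effect of digestion cannot be told apart from one of day. The titles call the samples biological replicates without saying whether each came from a single mouse or a pool. The spread between them may thus be between mice or between pools, and it may in part be technical. The descriptions of day 14 replicates 2 and 3 name day 15 and day 16, and the grouping here follows the titles. Day 14 replicate 2 stood apart from the other day 14 samples in its chondrocyte markers, whose summed level was 2408 FPKM against 227 and 163 FPKM. Its OB markers were also higher, with a sum of 62980 FPKM against 35050 and 28480 FPKM. Results that rest on this sample are given with and without it.

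TGF-beta is secreted as a latent complex, in which the cut-off propeptide still covers the growth factor. Latent binders (LTBPs) tie this complex to microfibrils of the matrix, and integrins, thrombospondin and proteases can set the ligand free. Active ligand is bound by the type II receptor, which phosphorylates the type I receptor, and SMAD proteins carry the signal to the nucleus. Bone matrix is a known store of latent TGF-beta, and OBs are among the cells that make it.

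In the mm10 annotation (GENCODE vM21), all 10 members are protein-coding genes. Members of different roles lie near each other on a pair of chromosomes. *Tgfb1* (chr7:25687002-25705077) and *Ltbp4* (chr7:27305136-27337692) are 1.60 Mb apart, with 30 protein-coding genes between them. *Tgfb3* (chr12:86056745-86079041) and *Ltbp2* (chr12:84783212-84876532) are 1.18 Mb apart, with 18 protein-coding genes between them. *Tgfb2* lies at chr1:186622792-186705989, *Tgfbr1* at chr4:47353222-47414931, *Tgfbr2* at chr9:116084293-116175360, *Tgfbr3* at chr5:107106570-107289629, *Ltbp1* at chr17:75005568-75392512 and *Ltbp3* at chr19:5740904-5758532.

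RefSeq promoter windows (GRCm38.p6, the mm10 build) were matched for 8 of the 10 members. The windows of *Tgfbr1*, *Tgfbr2* and *Ltbp3* are shown because the unadjusted p of these members was under 0.05 with a higher mean on day 14, and that of *Tgfb1* because its mean was lower, although none passed the adjusted test. The window of *Ltbp2* overlaps an exon and is not shown. Each run holds the 250 bases before the transcription start, 5′ to 3′ on the gene's strand. Capitals mark the SMAD box (CAGAC, or GTCTG on the other strand) and the GC box (GGGCGG, or CCGCCC on the other strand); matches of these motifs did not overlap in the windows shown, which held no AP-1 site (TGANTCA, in 6.7% of all windows) or TATA box (TATAAA, in 12.4%). *Tgfbr1* has 2 windows, and the one at the gene's annotated start is shown.
Tgfb1, plus strand, chr7:25686752-25687001: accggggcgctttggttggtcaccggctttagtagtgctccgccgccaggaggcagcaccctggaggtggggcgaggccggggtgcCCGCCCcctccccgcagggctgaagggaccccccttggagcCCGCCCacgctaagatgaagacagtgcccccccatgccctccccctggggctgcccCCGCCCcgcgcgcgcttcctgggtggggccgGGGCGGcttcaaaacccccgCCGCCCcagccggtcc
Tgfbr1, plus strand, chr4:47352972-47353221: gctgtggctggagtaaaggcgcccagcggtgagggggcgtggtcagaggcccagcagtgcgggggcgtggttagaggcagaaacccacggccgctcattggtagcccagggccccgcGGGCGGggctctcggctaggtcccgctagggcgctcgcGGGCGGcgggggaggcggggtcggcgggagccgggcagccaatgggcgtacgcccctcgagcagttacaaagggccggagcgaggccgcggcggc
Tgfbr2, minus strand, chr9:116175364-116175613: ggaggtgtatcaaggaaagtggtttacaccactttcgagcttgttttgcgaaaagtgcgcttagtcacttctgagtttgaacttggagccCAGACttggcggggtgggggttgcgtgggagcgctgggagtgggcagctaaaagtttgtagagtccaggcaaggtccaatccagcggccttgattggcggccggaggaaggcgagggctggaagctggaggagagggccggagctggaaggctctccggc
Ltbp3, plus strand, chr19:5740650-5740899: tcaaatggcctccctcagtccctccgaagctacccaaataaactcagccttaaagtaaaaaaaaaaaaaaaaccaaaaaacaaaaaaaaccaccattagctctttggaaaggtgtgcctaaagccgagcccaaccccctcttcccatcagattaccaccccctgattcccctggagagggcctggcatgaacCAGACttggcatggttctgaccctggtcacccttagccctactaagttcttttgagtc

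The windows differ in base composition. GC content was 75.2% in *Tgfb1* and 74.8% in *Tgfbr1*, against 58.4% in *Tgfbr2* and 47.2% in *Ltbp3*, with a median of 52.4% over all 32851 windows of this length. *Tgfb1* held 5 GC boxes and *Tgfbr1* held 2, and neither held a SMAD box in this stretch. *Tgfbr2* and *Ltbp3* each held 1 SMAD box and no GC box. Over all windows, 42.2% held a SMAD box and 32.7% a GC box. These letter matches describe the windows only.

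Of the ligands, *Tgfb3* had the highest level in all 6 samples and *Tgfb1* the lowest. *Tgfb3* had 47.0, 41.6 and 71.1 FPKM in day 10 replicates 1, 2 and 3, and 85.6, 72.1 and 58.6 FPKM in day 14 replicates 1, 2 and 3. The highest day 10 sample was above the lowest day 14 sample, so the days overlapped. The mean went from 53.2 ± 15.7 to 72.1 ± 13.5 FPKM (SD, n = 3), and the log2 fold change of FPKM + 0.1 was 0.46 (95% interval −0.07 to 0.99).

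*Tgfb2*, the isoform that depends most on the co-receptor encoded by *Tgfbr3*, had 18.7, 25.3 and 32.4 FPKM on day 10 and 23.2, 48.6 and 42.8 FPKM on day 14. Day 14 replicate 1 lay within the day 10 range, while the other day 14 samples lay above it. Its log2 fold change was 0.55 (95% interval −0.15 to 1.25). *Tgfb1*, the isoform best known from immune and bone biology, had 8.98, 7.22 and 4.01 FPKM on day 10 and 3.36, 6.07 and 2.40 FPKM on day 14. It was the member whose log2 mean was lowest on day 14 relative to day 10, at −0.79 (95% interval −1.70 to 0.13), with day 14 replicate 2 inside the day 10 range. *Tgfb1* was also thinly covered, with between 36 and 103 estimated reads per sample if all reads fell on its longest transcript.

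**Figure D1:**
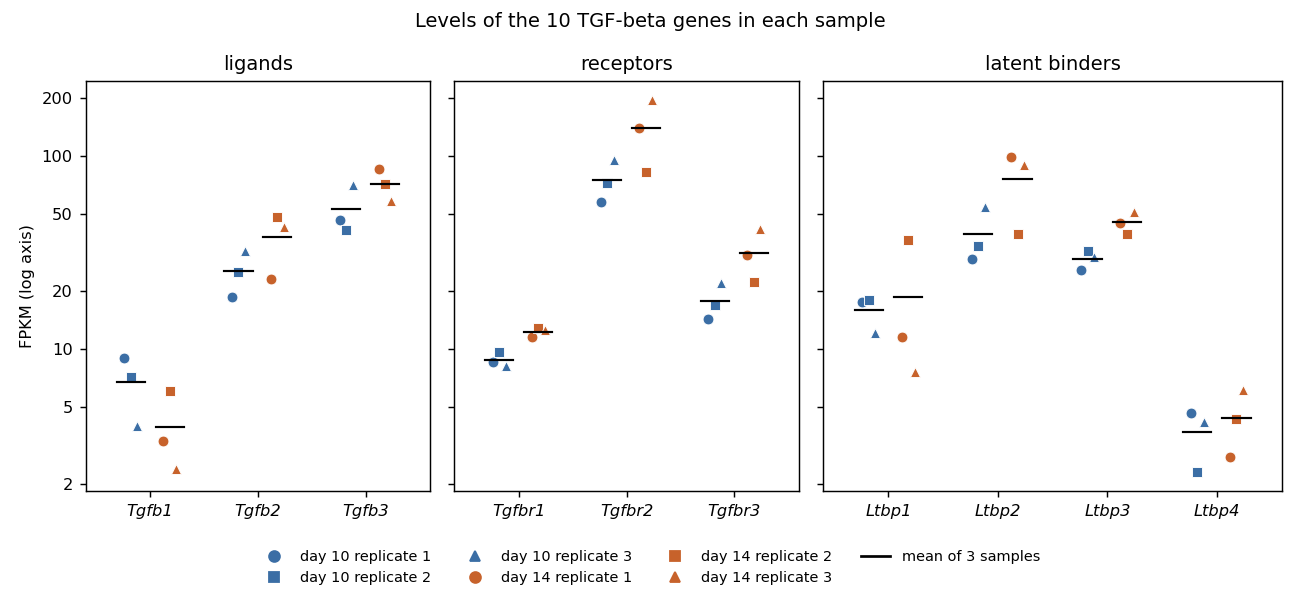
FPKM (log axis) of each member in every sample, by role, with day 10 in blue, day 14 in orange, a marker shape for each replicate number and a black line at the mean of 3 samples. *Tgfbr1*, *Tgfbr3* and *Ltbp3* have all day 14 samples above those of day 10, and in *Ltbp1* day 14 replicate 2, at 36.8 FPKM, lies above all others.

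The mean FPKM of each of the 3 receptors was higher on day 14, by 1.40- to 1.84-fold, and none passed the test across all genes. *Tgfbr2*, the type II receptor that binds the ligand first, had the highest mean level of the 10 members, at 58.3, 72.7 and 96.1 FPKM on day 10 and 140, 82.7 and 197 FPKM on day 14. Only day 14 replicate 2 was inside the day 10 range. The mean went from 75.7 ± 19.1 to 140 ± 56.9 FPKM (SD, n = 3), and the log2 fold change was 0.83, with a standard error (SE) of 0.32.

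*Tgfbr3*, which encodes betaglycan, a co-receptor that presents ligand to the type II receptor, had 14.3, 17.0 and 22.1 FPKM on day 10 and 30.6, 22.3 and 42.2 FPKM on day 14. The days did not overlap, but day 10 replicate 3 and day 14 replicate 2 lay next to each other at 22.06 and 22.28 FPKM. The log2 fold change was 0.80 (SE 0.26). *Tgfbr1*, the type I receptor kinase, varied least of all members between samples, with 8.56, 9.72 and 8.23 FPKM on day 10 and 11.5, 12.9 and 12.6 FPKM on day 14. Its groups did not overlap, and its mean went from 8.83 ± 0.782 to 12.4 ± 0.721 FPKM (SD, n = 3), and the log2 fold change was 0.48 (SE 0.16).

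Of the latent binders, only *Ltbp3* had days that did not overlap, and the mean of *Ltbp2* was also higher on day 14, by 1.93-fold. None of the 4 passed the test across all genes. *Ltbp3*, which carries latent TGF-beta and is linked to skeletal growth, had 25.8, 32.1 and 30.1 FPKM on day 10 and 45.3, 39.6 and 51.6 FPKM on day 14. All day 14 samples were above all day 10 samples. The mean went from 29.3 ± 3.25 to 45.5 ± 6.04 FPKM (SD, n = 3), and the log2 fold change was 0.63 (SE 0.16).

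*Ltbp2*, a microfibril protein that, unlike its relatives, is not known to bind latent TGF-beta, had 29.3, 34.2 and 54.6 FPKM on day 10 and 99.3, 39.4 and 89.7 FPKM on day 14. Day 14 replicate 2 was again inside the day 10 range, and the log2 fold change was 0.89 (SE 0.37). *Ltbp1*, a main carrier of latent TGF-beta, had 17.5, 18.1 and 12.1 FPKM on day 10 and 11.6, 36.8 and 7.62 FPKM on day 14. Day 14 held both its highest and its lowest sample, a range of 4.83-fold. The ratio of its arithmetic means, day 14 over day 10, was 1.17, whereas its log2 fold change was −0.08 (95% interval −1.23 to 1.07), so the sign depended on how the samples were averaged. *Ltbp4*, best known from elastic fibres, had the lowest mean level of the 10 members over all 6 samples (on day 14 alone the mean of *Tgfb1* was lower, 3.95 against 4.42 FPKM), with 4.67, 2.30 and 4.19 FPKM on day 10 and 2.77, 4.34 and 6.16 FPKM on day 14 and a log2 fold change of 0.23 (95% interval −0.62 to 1.08).

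**Figure D2:**
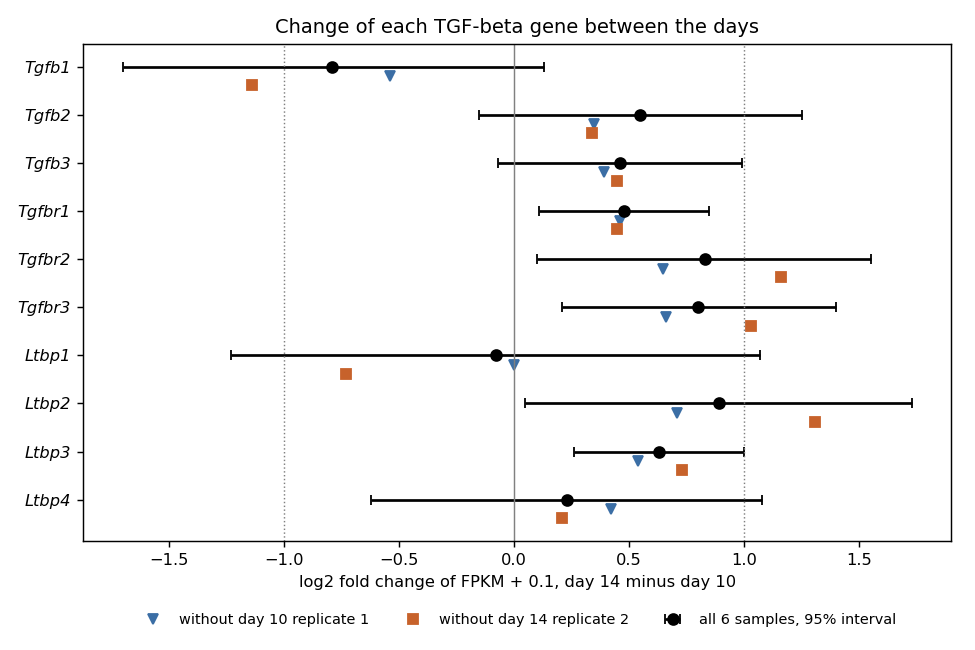
Log2 fold change of FPKM + 0.1 (day 14 minus day 10) of each member with its 95% interval (black), and the same without day 10 replicate 1 (blue) or without day 14 replicate 2 (orange); dotted lines mark 2-fold. The intervals of the 3 receptors, *Ltbp2* and *Ltbp3* lie above 0, and without day 14 replicate 2 *Tgfb1* and *Ltbp1* sit at −1.14 and −0.73.

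No member passed the test across all genes. With limma and Benjamini-Hochberg adjustment over the 19526 genes, 0 of the 10 members had an adjusted p under 0.05, as did 0.0154% of all genes tested (3 genes). The smallest adjusted p among the members was 0.310 for *Ltbp3*, followed by 0.374 for *Tgfbr3* and 0.395 for *Tgfbr1*. Before adjustment, limma's p was under 0.05 in 5 members, all higher on day 14. These were *Ltbp3* (0.00432), *Tgfbr3* (0.0136), *Tgfbr1* (0.0176), *Tgfbr2* (0.0304) and *Ltbp2* (0.0405), each value being limma's unadjusted p. The background for such a p in this direction was 5.60% of all genes tested, and 4.40% were lower on day 14 with such a p, which no member was. The days were separated, with all day 14 values above the day 10 values, in 3 members (*Tgfbr1*, *Tgfbr3* and *Ltbp3*), against 7.59% of all genes. No member was over 2-fold with an unadjusted p under 0.05, against 3.83% of all genes. The log2 mean was higher on day 14 in 8 of the 10 members, against 46.5% of all genes, and the median log2 fold change was 0.52 over the members and −0.04 over all genes tested. These backgrounds include many genes at lower levels than the members. In the fit of genes with a mean above 1 FPKM, 4 members were higher with an unadjusted limma p under 0.05, against 9.11% of those genes. *Tgfbr1*, *Tgfbr3* and *Ltbp3* had separated days there, against 11.4%. In the two-sided exact permutation test of single members, *Tgfbr1*, *Tgfbr3* and *Ltbp3* reached p = 0.1, and no smaller p is possible with 3 samples a day, and the others had exact p values from 0.2 to 0.9.

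The counts before adjustment turned on single libraries. Without day 10 replicate 1, which had the lowest level of 5 members (*Tgfb2*, *Tgfbr2*, *Tgfbr3*, *Ltbp2* and *Ltbp3*), 1 member (*Ltbp3*) had an unadjusted limma p under 0.05 with a higher level on day 14, and without day 10 replicate 2 there were 3. Of all genes, 581 of 19379 were higher with such a p in the first of these fits and 4.50% in the other. Without day 14 replicate 2 the 5 members were again *Tgfbr1*, *Tgfbr2*, *Tgfbr3*, *Ltbp2* and *Ltbp3*, against 7.01% of all genes. In that fit the same 5 members had separated days (15.3% of all genes, since fewer samples separate more easily), *Tgfb1* and *Ltbp1* were lower on day 14 with such a p (5.99%), and *Tgfb1*, *Tgfbr2*, *Tgfbr3* and *Ltbp2* were over 2-fold with it (6.74%). Without day 10 replicate 3, 3 members were over 2-fold (4.90% of all genes), 6 had separated days (12.9%) and 1 was lower (4.17%). With samples scaled to the same FPKM sum over genes of at least 200 bases, 4.30% of all genes were higher and 5.74% lower with such a p, 3 members were higher (*Tgfbr1*, *Tgfbr3* and *Ltbp3*), and *Tgfbr3* no longer had separated days. No fit gave any member an adjusted limma p under 0.05, and the smallest was 0.0869 for *Ltbp2* without day 14 replicate 2.

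The make-up of each role was compared as the share of each member in the summed FPKM of its role, a quantity that the scaling of a sample cannot change. *Tgfb3* gave between 56.2% and 76.3% of ligand FPKM in the 6 samples, *Tgfb2* between 20.7% and 41.2% and *Tgfb1* between 2.31% and 12.03%. Among the receptors, *Tgfbr3* stayed between 16.8% and 18.9%, while *Tgfbr2* gave between 70.2% and 78.2% and *Tgfbr1* between 5.02% and 10.95%. The summed level of the receptors was 102 ± 22.8 FPKM on day 10 and 184 ± 66.8 FPKM on day 14 (SD, n = 3). Among the latent binders, *Ltbp3* gave between 28.5% and 37.1% in every sample, whereas *Ltbp1* ran from 4.91% in day 14 replicate 3 to 30.6% in day 14 replicate 2. No share had separated days: the smallest two-sided exact permutation p was 0.2, for *Tgfb1* (8.50% ± 4.29 on day 10 and 3.37% ± 1.28 on day 14, SD, n = 3), with an adjusted exact p of 0.889 over the 10 shares.

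**Figure D3:**
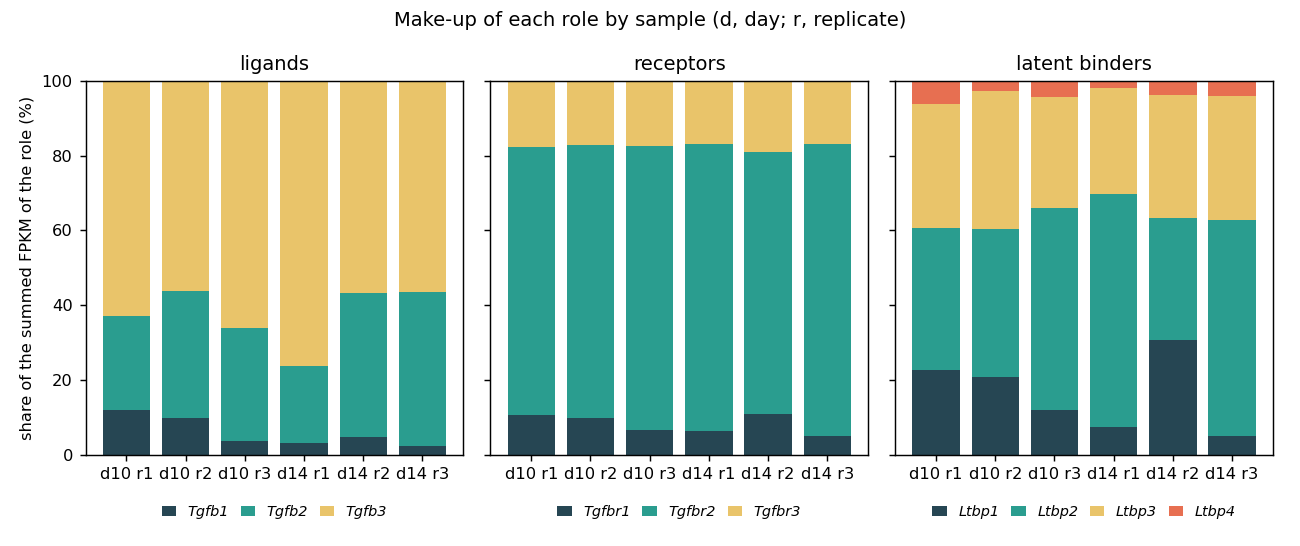
Stacked bars of the share (%) of each member in the summed FPKM of its role, for each sample. *Tgfb3* and *Tgfbr2* take the widest part of their roles in every sample, and *Ltbp1* takes 30.6% in day 14 replicate 2 against 7.29% and 4.91% in day 14 replicates 1 and 3.

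Ordered by the mean FPKM over the 6 samples, the members ran from *Tgfbr2* (108 FPKM) through *Tgfb3* (62.7), *Ltbp2* (57.8), *Ltbp3* (37.4), *Tgfb2* (31.8), *Tgfbr3* (24.8), *Ltbp1* (17.3), *Tgfbr1* (10.6) and *Tgfb1* (5.34) to *Ltbp4* (4.07 FPKM). *Tgfbr2* was above *Tgfb3* in 6 of 6 samples (two-sided exact sign-flip permutation test over samples, p = 0.03125, the smallest p that 6 samples allow, adjusted p = 0.188 over the 9 neighbouring pairs). For the other neighbours the exact p of this test ran from 0.0625 to 0.4375. The upper member was higher in 3 (*Tgfbr3* over *Ltbp1*) to 5 of 6 samples. The neighbours were set by the means of these same 6 samples, and the p does not allow for that choice. The test sets each difference against its spread over the samples. With 6 samples it has little room, so it cannot show that these neighbours were level. The adjusted p was at least 0.1875 for every pair, so the order of *Tgfbr2* and *Tgfb3* is not settled after adjustment either. Among all genes listed, ordered by mean FPKM, *Tgfbr2* ranked 750 on day 10 and 449 on day 14, and *Tgfb1* ranked 5747 and 7441.

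The genes most like the highest member of each role were found by Pearson's r of log2(FPKM + 0.1) over the 6 samples, among 11161 other genes with a mean of at least 1 FPKM, as a description without a test. For *Tgfbr2* these were *Panx1*, a pannexin channel gene, *Phyh* and *Csgalnact1*, which starts chondroitin sulfate chains, with r from 0.994 to 0.996. For *Ltbp2* they were *Itgb3*, the integrin beta chain that pairs with the alpha V chain, *Gngt2* and *Sod3*, the extracellular superoxide dismutase, with r from 0.990 to 0.992. For *Tgfb3* they were *Fggy*, *Fam36a* and *Mapkap1*, with r from 0.986 to 0.990. With only 6 samples many genes come this close: r was over 0.95 for 161 genes with *Tgfbr2*, 122 with *Ltbp2* and 28 with *Tgfb3*.

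The wider pathway was read from the same comparison as 44 further genes, all of which entered the test. None had an adjusted p under 0.05 from limma. The log2 mean was higher on day 14 in 36 of the 44, against 46.5% of all genes tested, with a median log2 fold change of 0.35. An unadjusted limma p under 0.05 was found in 8 genes that were higher and 1 that was lower on day 14, against 5.60% and 4.40% of all genes. Of the 44, 2 were over 2-fold with such a p, against 3.83% of all genes. Without day 10 replicate 1, the count higher with such a p was 4, against 581 of 19379 genes tested in that fit. The count over 2-fold with such a p was then 1, against 2.27% of all genes. It was 4 without day 10 replicate 3 (4.90% of all genes) and 6 without day 14 replicate 2 (6.74%). Without day 14 replicate 1, 2 pathway genes were lower with such a p, against 8.17% of all genes. The share of all genes thus moved with the sample left out as well.

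Among 11 genes that process or activate the latent complex, 2 had an unadjusted limma p under 0.05, both with higher means on day 14 (5.60% of all genes). *Itgb5*, the beta chain of an alpha V integrin, had 71.5, 90.3 and 106 FPKM on day 10 and 229, 143 and 193 FPKM on day 14, with separated days. Its log2 fold change, 1.07, was the largest in this group (SE 0.22, limma's adjusted p = 0.292). *Thbs1*, which encodes thrombospondin, was at 677, 524 and 685 FPKM on day 10 and 1036, 1036 and 749 FPKM on day 14, also without overlap (log2 fold change 0.57, SE 0.23, limma's adjusted p = 0.465). The lowest in the group was *Itgb6*, an epithelial integrin chain listed at 0.110 to 0.764 FPKM per sample, with −0.11 (SE 0.70, and 0.01 on the scale of log2(FPKM + 1), so its sign is not settled).

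All 6 matrix partners had higher log2 means on day 14 (46.5% of all genes did), from 0.29 for *Dcn*, the proteoglycan decorin that can bind TGF-beta, to 0.88 for *Fbn1*, the fibrillin to which LTBPs attach. None of the 6 had an unadjusted limma p under 0.05, but 3 had separated days, against 7.59% of all genes: *Fn1*, which encodes fibronectin (log2 fold change 0.47), *Bgn*, which encodes the proteoglycan biglycan (0.60), and *Fmod*, which encodes fibromodulin (0.55). *Fbn1* had 68.9, 70.8 and 140 FPKM on day 10 and 199, 91.5 and 234 FPKM on day 14, so day 14 replicate 2 was inside the day 10 range, as it was for *Tgfbr2* and *Ltbp2*.

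Of the 6 receptor partners, *Bambi* and *Acvrl1* lay at opposite ends. *Bambi*, a pseudoreceptor without a kinase that dampens signalling, had 62.9, 44.3 and 27.6 FPKM on day 10 and 9.32, 26.5 and 4.83 FPKM on day 14. The days did not overlap, and its log2 fold change, −1.99, was the largest in size of all 44 genes (SE 0.56, limma's adjusted p = 0.332). Without day 14 replicate 2 it was −2.65, with an adjusted p of 0.0419 from limma. *Acvrl1*, a type I receptor best known from endothelium, had 6.39, 6.06 and 8.82 FPKM on day 10 and 14.8, 8.78 and 18.1 FPKM on day 14 (log2 fold change 0.92, SE 0.29, limma's adjusted p = 0.362).

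None of the 3 signal-carrying SMADs had an unadjusted limma p under 0.05: the log2 fold change was 0.32 for *Smad2* (SE 0.26), −0.28 for *Smad3* (SE 0.33) and 0.13 for *Smad4* (SE 0.18). Among 9 inhibitors, 5 had an unadjusted limma p under 0.05 with a higher mean on day 14 (5.60% of all genes), and the same 5 had separated days (7.59% of all genes). None of them passed adjustment, with adjusted p from 0.337 to 0.403 in limma. *Ski*, a nuclear co-repressor of SMADs, had 3.26, 3.46 and 3.81 FPKM on day 10 and 5.03, 6.06 and 8.04 FPKM on day 14 (log2 fold change 0.82, SE 0.24, limma's adjusted p = 0.340). The others were *Skil*, a relative of *Ski* (0.55), *Tgif1*, a homeobox co-repressor (0.63), *Smurf1*, a ubiquitin ligase (0.62), and *Pmepa1*, a membrane protein that holds back SMADs (0.72). *Smad7*, the inhibitory SMAD, had the lowest log2 fold change of this group, −0.09 (SE 0.26). None of the 9 response genes had an unadjusted limma p under 0.05, with log2 fold changes from −0.18 for *Cyr61* (SE 0.23) to 0.63 for *Tagln* (SE 0.29). *Thbs1*, *Fn1*, *Bgn*, *Fmod*, *Skil*, *Tgif1*, *Smurf1* and *Pmepa1* were named after their values were seen.

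**Figure D4:**
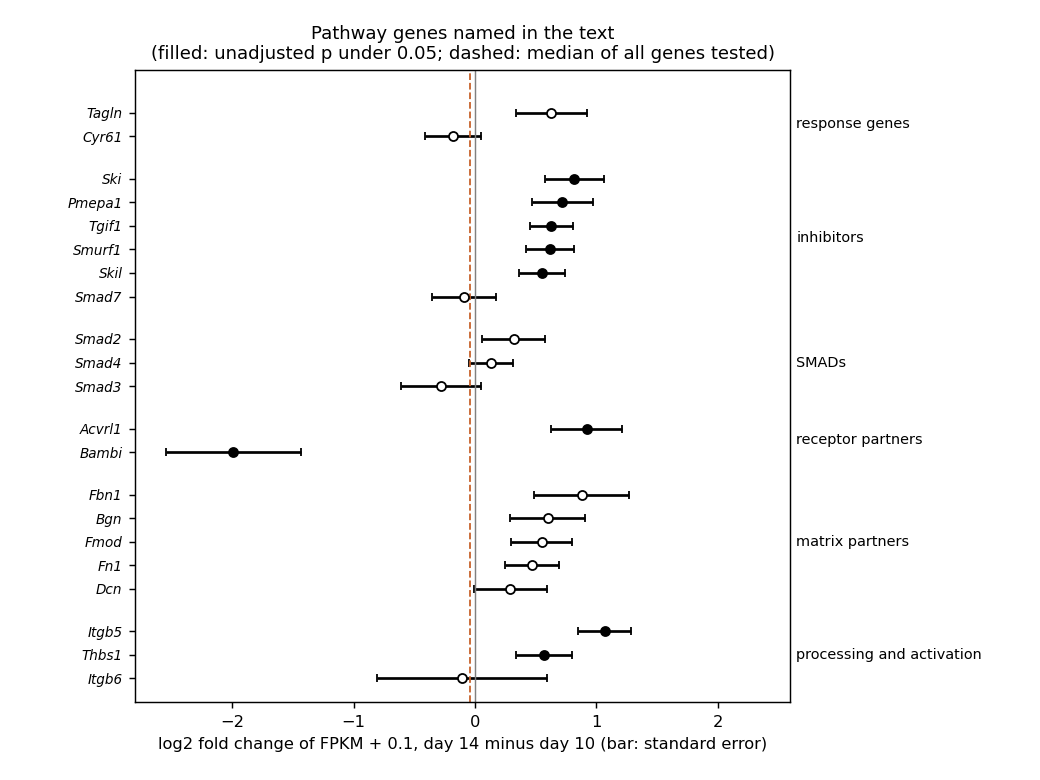
Log2 fold change of FPKM + 0.1 (day 14 minus day 10) of the pathway genes named in the text with standard errors, by role; filled points have an unadjusted limma p under 0.05 and the dashed line is the median of all genes tested, −0.04. *Bambi* is farthest to the left at −1.99, and 5 inhibitors are filled on the right.

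Markers of OBs summed to a high level in every sample, carried by *Col1a1*, *Col1a2*, *Ibsp* and *Spp1*, while some defining markers were low in day 14 replicates 1 and 3. In these samples the osteoblast transcription factor gene *Dlx5* was at 0.980 and 1.01 FPKM, *Sp7* at 9.79 and 4.09 FPKM and *Phex* at 3.75 and 1.49 FPKM. The sum of 10 OB markers ran from 43070 to 83700 FPKM on day 10 and from 28480 to 62980 FPKM on day 14, and all 10 had lower log2 means on day 14. The sum of 10 chondrocyte markers was 1605, 1366 and 765 FPKM on day 10 and 227, 2408 and 163 FPKM on day 14, so day 14 replicate 2 was the highest and the other day 14 samples the lowest. In day 14 replicate 2 this sum was led by *Comp* (1383 FPKM) and *Col2a1* (688 FPKM). *Acan*, *Sox9* and *Hapln1* were also highest there, whereas *Col9a1*, *Col9a2*, *Col9a3*, *Col11a2* and *Matn1* were higher in day 10 replicate 1. Like the chondrocyte sum, *Ltbp1* was highest in day 14 replicate 2 and lowest in day 14 replicate 3. *Tgfb1* and *Bambi* were higher in day 14 replicate 2 than in the other day 14 samples. So was the OB sum, at 62980 FPKM against 35050 and 28480 FPKM in day 14 replicates 1 and 3. *Tgfb1* had the same order of samples as the OB sum, except that day 10 replicates 1 and 2 changed places. Among the day 14 samples, *Tgfbr2*, *Tgfbr3*, *Ltbp2*, *Ltbp3* and *Fbn1* were lowest in replicate 2.

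The sum of 8 endothelial markers had the same order of samples as *Ltbp2*, at 2.05 to 4.02 FPKM on day 10 and 3.89 to 8.57 FPKM on day 14, with no single gene above 1.83 FPKM. The sum of 6 adipocyte markers had the same order as *Tgfbr2*, at 8.99 to 17.4 and 15.2 to 30.8 FPKM, and rested on *Fabp4*, since the other 5 were each below 1 FPKM. The sum of 6 pericyte and smooth muscle markers had the same order as *Ltbp1*, at 30.4 to 41.6 and 15.4 to 45.0 FPKM, led by *Cspg4* with 6.75 to 33.2 FPKM. The single genes of this list did not share that order. *Cspg4* was highest in day 14 replicate 2, and *Rgs5* and *Cnn1* were highest in other samples. *Myh11* (0.185 FPKM), *Kcnj8* (0.170 FPKM) and *Abcc9* (0.141 FPKM) were at their lowest in day 14 replicate 2. The sum of 10 myeloid markers was 36.6 to 163 FPKM on day 10 and 20.2 to 627 FPKM on day 14, lowest in day 14 replicate 2 and highest in day 14 replicate 3. The sum of 8 osteoclast markers was 447 to 490 and 628 to 676 FPKM and rested mostly on *Ctsk*, while 6 of the 8 had lower log2 means on day 14, with *Calcr*, *Oscar*, *Ocstamp* and *Dcstamp* below 1 FPKM in every sample. No gene of the 7 lists was at 0 in all samples. Above 0 in every sample were 1 of 6 adipocyte, 7 of 8 endothelial, 7 of 10 myeloid, 6 of 8 osteoclast and 9 of 10 chondrocyte markers. The part of these cells in the members' values was not tested, and in bulk samples fewer cells of a type and less RNA per cell cannot be told apart.

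**Figure D5:**
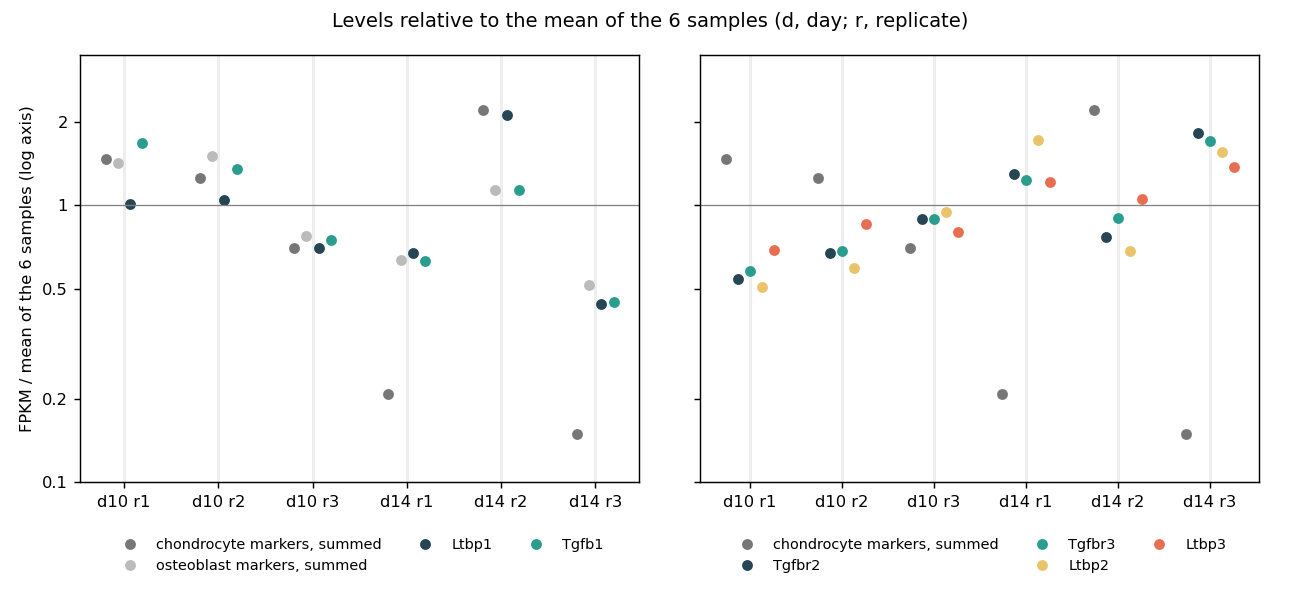
FPKM divided by the mean of the 6 samples (log axis) for each sample; left, *Ltbp1* and *Tgfb1* with the summed chondrocyte and OB markers; right, *Tgfbr2*, *Tgfbr3*, *Ltbp2* and *Ltbp3* with the chondrocyte markers. In day 14 replicate 2 the chondrocyte markers (2408 FPKM) and *Ltbp1* (36.8 FPKM) are highest, and the 4 members on the right are at their lowest among the day 14 samples.

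The sequencing depth, estimated from the steps between low FPKM values, was 4530832 to 7755478 reads per sample, and 3 reads on 1000 bases then correspond to 0.387 to 0.662 FPKM. All members were above this level in every sample. Between 16646 and 19698 genes were above 0. If all reads fell on the longest transcript, every member except *Tgfb1* and *Ltbp4* (65 to 225) had at least 232 estimated reads per sample. Reads on shorter transcripts would make these figures lower, and they cover counting error only.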

How the data were processed

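RNA-seq of sorted ECFP+ OBs covered both days with 3 samples each. Per the submitters' processing notes, 75-base single-end reads were mapped to mm10 with TopHat2 2.0.13, Bowtie2 2.2.3 and SAMtools 0.1.19, and the authors computed and deposited FPKM with Cufflinks 2.2.1. The gene annotation, the treatment of multi-mapping reads and any scaling between samples are not given in the sources used here. FPKM is normalized to each library's own total, so a level can move when other genes take a larger part of the reads.

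Symbols that a spreadsheet had turned into dates (25 genes) were restored by position. Levels were compared with limma 3.58.1 (R 4.3.3, mean-variance trend) on log2(FPKM + 0.1) with the day as the only factor, over genes with a mean above 0.1 FPKM and with Benjamini-Hochberg adjustment. This understates changes of low genes. The code was tested on simulated data with known changes. Two-sided exact permutation tests were used for single members, shares and order. Reads were estimated from genes with 1 transcript of 1500 to 8000 bases at up to 0.3 FPKM (fragment length 230 bases), where 75.4% to 79.9% of values came within 0.1 of a whole read. Named pathway genes were the lowest and highest of each role, those over 2-fold with an unadjusted p under 0.05 and the SMADs. Some items are not reported here. Alternatives were another pseudocount, filter, scaling, variance model, the replicate block and leaving out each sample. The members and lists were chosen with earlier results of these data known.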

Additional observations from a re-analysis of the deposited data

How the results depend on the processing

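No member had an adjusted limma p under 0.05 under any of the 14 alternatives. Members higher on day 14 with an unadjusted p under 0.05 numbered 5 (5.60% of all genes). Among genes with a mean above 1 FPKM there were 4 (9.11% of those genes). After scaling samples to the same FPKM sum over genes of at least 200 bases there were 3 (4.30% of all genes). Without the mean-variance trend there were 2 (3.70%), and the cause was not tested. Whether the replicate numbers pair the samples was not tested. The deviations of same-numbered samples correlated at −0.0058 to 0.0888, and 4 of 6 samples correlated best with their own number. With the replicate block, members with an unadjusted p under 0.05 were 6 higher (*Tgfb2* added, 6.15% of all genes) and 1 lower (*Tgfb1*, 4.76%). Pathway genes higher with such a p were 13 with this block in place of 8 (5.60%), and 5 without the mean-variance trend (3.70%). Over all genes, 748 were over 2-fold with an unadjusted p under 0.05 (363 with log2(FPKM + 1), 476 with a mean above 1 FPKM) and 1094 were higher with such a p (722 without the trend). *Itgb6* turned from −0.11 to 0.01 with log2(FPKM + 1).

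Leaving out each sample in turn gave ranges of 0 to 4 members over 2-fold with an unadjusted p under 0.05, 1 to 5 higher and 0 to 2 lower with such a p, and 3 to 6 with separated days. For the pathway genes the ranges were 0 to 1 with an adjusted p under 0.05, 1 to 6 over 2-fold, 4 to 11 higher, 1 to 2 lower and 10 to 21 separated. For all genes they were 3 to 76 with an adjusted p under 0.05 (76 without day 14 replicate 2), 440 to 1594 over 2-fold, 581 to 1379 higher, 356 to 1536 lower and 1845 to 3012 separated, against 1482 with all samples. The log2 fold change changed sign within these ranges for *Ltbp1* (−0.73 to 0.40), *Ltbp4* (−0.07 to 0.52), *Itgb6* (−0.67 to 0.35), *Smad3* (−0.59 to 0.09), *Smad7* (−0.29 to 0.13) and *Cyr61* (−0.31 to 0.01). The difference in share (percentage points, day 14 minus day 10) did so for *Tgfb2* (−0.21 to 10.05), *Tgfb3* (−5.09 to 4.82), *Tgfbr2* (−0.19 to 3.83), *Tgfbr3* (−0.57 to 0.48), *Ltbp1* (−12.4 to 0.44) and *Ltbp3* (−3.62 to 0.0225). *Tgfb1*, *Tgfb2*, *Tgfb3*, *Tgfbr1*, *Tgfbr2*, *Tgfbr3*, *Ltbp2* and *Ltbp3* kept their direction in all of these fits. Depth limits *Tgfb1* and *Ltbp4* most.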
